A study of Mus musculus with 2 samples.

Results

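The genes of the methionine cycle, transsulfuration, glutathione synthesis and thiol reduction were examined for ATF4 binding in neurons. The 10 genes (Mat2a, Ahcy, Cbs, Cth, Gclc, Gclm, Gss, Gsr, Gpx4 and Txnrd1) were chosen by name, out of 21887 protein-coding genes of the RefSeq table of GRCm38.p6. A peak was counted for a gene when its summit, the position of the highest stack of DNA fragments, lay inside the gene or within 10 kb of either end. 4 of the 7873 called peaks met this rule, 1 each at Ahcy, Gclc, Gsr and Gpx4. No peak was called in the windows of Mat2a, Cbs, Cth, Gclm, Gss and Txnrd1. None of the 4 peaks lay within 1 kb of an end of its gene.

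The peaks came from a CUT&Tag library, an assay in which an antibody brings a transposase to the DNA around a protein and the tagged fragments are sequenced. About 100000 primary neurons, cultured from the cortex and hippocampus of embryonic C57BL/6 mice, were incubated with an antibody to ATF4. No genetic change was given for these mice, and neither the treatment of this culture nor the number of embryos in it is given in the sources used here. A second library, made with IgG from as many cells, was not analysed here, and whether it served as the control when peaks were called is not given in the sources used here. Since only 1 library was analysed, no value has a replicate error and no conditions were tested against each other. Peaks of ATF4 do not report the identity of the cells, which was not checked here.

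ATF4 is the transcription factor of the integrated stress response. When kinases such as PERK phosphorylate the initiation factor eIF2, most translation slows while ATF4 is made, and ATF4 switches on genes for amino acid supply and redox balance. It binds with C/EBP partners to the C/EBP-ATF response element (CARE), whose core is searched below as TGATGNAA. The methionine cycle yields homocysteine, transsulfuration turns homocysteine into cysteine, and cysteine limits the synthesis of glutathione, the main thiol antioxidant of neurons. Many genes of glutathione synthesis and thiol reduction are known targets of NRF2, which binds the antioxidant response element, searched below as TGACNNNGC.

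Promoter sequences from RefSeq (GRCm38.p6, 250 bases before to 50 after a listed transcript start) were matched by symbol to 7 of the 10 genes, with 12 listed starts in all. Cth, Gclc and Gsr had no entry. None of the 7 genes held the CARE core on either strand, against 4.13% of the 17492 protein-coding genes with an entry. The antioxidant response element was found in Gclm and Txnrd1, 2 of the 7, against 14.8% of all genes with an entry. The shorter cyclic AMP response core TGACG was found in Gclm, Gpx4 and Txnrd1, 3 of the 7, against 26.2%. In Gclm it overlapped the antioxidant response element. Such matches describe the letters of these windows and are not binding sites by themselves.

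Both member promoters with the antioxidant response element are shown with its letters in capitals, because they hold a motif of the pathway and had no called peak. They lie at chr3:122245307-122245606, plus strand, for Gclm and at chr10:82858956-82859255, plus strand, for the start of Txnrd1 listed second. Both matches read as the motif on the opposite strand, at positions -134 to -126 of Gclm and -92 to -84 of Txnrd1, with the first transcribed base counted as 0. All sequences run 5′ to 3′ along the gene.
Gclm: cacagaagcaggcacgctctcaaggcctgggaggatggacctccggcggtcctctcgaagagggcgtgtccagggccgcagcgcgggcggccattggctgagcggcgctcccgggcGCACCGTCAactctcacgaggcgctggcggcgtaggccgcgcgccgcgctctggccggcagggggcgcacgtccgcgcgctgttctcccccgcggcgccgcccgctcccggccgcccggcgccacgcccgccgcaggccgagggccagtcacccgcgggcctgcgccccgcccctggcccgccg
Txnrd1: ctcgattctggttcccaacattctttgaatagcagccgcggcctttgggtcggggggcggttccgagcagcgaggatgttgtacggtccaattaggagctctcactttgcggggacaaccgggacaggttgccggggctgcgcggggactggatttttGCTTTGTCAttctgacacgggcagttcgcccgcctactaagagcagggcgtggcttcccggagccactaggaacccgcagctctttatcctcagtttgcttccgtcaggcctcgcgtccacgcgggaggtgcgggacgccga

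For contrast, the promoters of Chac1 and Slc7a11 are shown with the CARE core in capitals. Chac1 encodes an enzyme that breaks glutathione down, and Slc7a11 the cystine carrier that supplies cysteine for its synthesis. They lie at chr2:119350992-119351291, plus strand, and at chr3:50443564-50443863, minus strand. Both held a called ATF4 peak. Among the 64 other pathway genes with an entry, 3 held the CARE core (against 4.13% of all genes with an entry), and the third, Sqor (a mitochondrial sulfide oxidoreductase), had it at -143 with no called peak in its promoter. Of the same 64 genes, 6 had a summit within a listed promoter, against 3.42% of all genes with an entry. Besides Chac1 and Slc7a11 these were Ahcyl1, Glrx2, Glrx5 and Gstm7, none of which held the CARE core there. The CARE core of Chac1 began 12 bases before the summit of the peak, at -193. Slc7a11 held 2 cores in opposite directions, from -66 and from -47, and its summit lay 17 bases after the listed start.
Chac1: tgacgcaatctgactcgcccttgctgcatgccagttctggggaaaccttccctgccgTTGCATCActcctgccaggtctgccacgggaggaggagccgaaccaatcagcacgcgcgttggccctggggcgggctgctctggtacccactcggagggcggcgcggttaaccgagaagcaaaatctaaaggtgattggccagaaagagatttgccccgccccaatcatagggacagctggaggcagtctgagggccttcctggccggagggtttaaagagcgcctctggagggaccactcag
Slc7a11: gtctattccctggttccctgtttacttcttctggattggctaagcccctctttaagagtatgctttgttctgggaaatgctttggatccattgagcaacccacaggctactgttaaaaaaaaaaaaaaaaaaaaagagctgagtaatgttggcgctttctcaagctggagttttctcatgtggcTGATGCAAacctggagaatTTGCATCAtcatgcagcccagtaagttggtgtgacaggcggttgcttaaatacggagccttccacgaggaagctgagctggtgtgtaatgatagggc

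Peaks are described by the values in the authors' list. Fold enrichment is the height at the summit plus 1, divided by the caller's estimate of the local background plus 1, and q is its p-value adjusted for the number of positions tested. The number of fragments at each summit was solved from the fold enrichment and the p-value, which assumes the formulas of MACS2, and a whole number solved both in all 7873 peaks. Across the library the median was 4 fragments, and 41.0% of the peaks rested on 3, the fewest of any peak. The median fold enrichment was 4.33 and the median width was 207 bp. Intervals of fragments below are exact Poisson intervals (95%), which cover counting error only, since copies made by PCR are not independent molecules.

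Of the methionine cycle, Mat2a encodes the enzyme that makes S-adenosylmethionine and Ahcy the enzyme that cleaves S-adenosylhomocysteine to homocysteine. Mat2a (chromosome 6, 72432796 to 72439556) had no peak in its window. Its nearest summit lay 35.8 kb beyond its start, in a peak of 3 fragments. The window of Ahcy (chromosome 2, 155059310 to 155074497) held a peak from 155050886 to 155051135, with 6 fragments at the summit (interval 2.20 to 13.1) over a background of 0.225. Its fold enrichment was 5.72 and its q was 2.85e-05, which placed it 1801st of all peaks together with the other peaks of that q. This summit lay 8.32 kb outside Ahcy, beyond the end opposite to its start and 23.5 kb from that start. It lay 19 bp from an end of the neighbouring gene nonagouti (symbol a), and that end was not the start of nonagouti. The only peak in the windows of Mat2a and Ahcy was thus nearer to another gene than to the member that it was counted for.

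Transsulfuration is carried out by cystathionine beta-synthase (Cbs), which joins homocysteine to serine, and cystathionine gamma-lyase (Cth), which releases cysteine. Neither had a peak in its window. The summit nearest to Cbs (chromosome 17, 31612623 to 31637233) lay 48.2 kb outside the gene, in a peak of 13 fragments with a fold enrichment of 8.36, and 321 bp from an end of Pknox1. Cth (chromosome 3, 157894248 to 157925081) was the member farthest from any peak. Its nearest summit was 293.7 kb away and held 3 fragments, and 85.9% of the protein-coding genes were nearer to a summit than Cth.

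Gclc and Gclm encode the catalytic and modifier subunits of glutamate-cysteine ligase, the rate-limiting enzyme of glutathione synthesis, and Gss encodes glutathione synthetase. The peak of Gclc (chromosome 9, gene from 77754535 to 77794489) had the most fragments of the 4, with an interval that overlapped those of the others. It ran from 77750515 to 77750813, with 8 fragments (3.45 to 15.8) over a background of 0.484, a fold enrichment of 6.07 and q = 1.77e-05, and ranked 1625th. Its summit lay 3.99 kb outside the end of Gclc with the lower coordinate, and no other gene of the table had an end nearer to it. Whether that end is the start of Gclc was not read, since the promoter table has no entry for it. Gclm (chromosome 3, 122245487 to 122267215) had no peak within 50 kb, and its nearest summit lay 56.3 kb away with 3 fragments. Gss (chromosome 2, 155563181 to 155592810) had none in its window. The summit nearest to Gss lay 45.2 kb away with 13 fragments, 50 bp from the start of Acss2, which encodes a cytosolic acetyl-CoA synthetase. Of the 3 synthesis genes, only Gclc therefore had a peak counted for it.

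Gsr, Gpx4 and Txnrd1 encode glutathione reductase, the peroxidase that reduces lipid peroxides, and the cytosolic thioredoxin reductase. Gsr and Gpx4 were the members with a summit inside the gene. The peak of Gsr (chromosome 8, gene from 33653238 to 33698162) ran from 33685485 to 33685651, with 3 fragments (0.619 to 8.77) over a background of 0.138. Its fold enrichment was 3.51 and its q was 0.0105, at rank 6684 among 294 peaks of this q. Gsr ended 12.6 kb from this summit, and the nearest gene end of any kind, that of the snoRNA gene Gm24727, was 6233 bp away. A further peak of 4 fragments (fold enrichment 4.14) lay 11.9 kb beyond the upper end of Gsr and so just outside its window. The peak of Gpx4 (chromosome 10, gene from 80047166 to 80056439) ran from 80050140 to 80050307, with 4 fragments (1.09 to 10.2) over a background of 0.207, a fold enrichment of 4.14 and q = 0.00372, at rank 4272 among 1483 peaks of this q. Its summit lay 3.06 kb inside the gene from the first listed start. Both peaks were narrower than the median of the library, at 167 and 168 bp. Txnrd1 (chromosome 10, 82833951 to 82897724) was the longest member, at 63.8 kb, and had no peak in its window. Its nearest summit lay 127.6 kb away with 4 fragments.

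**Figure D1:**
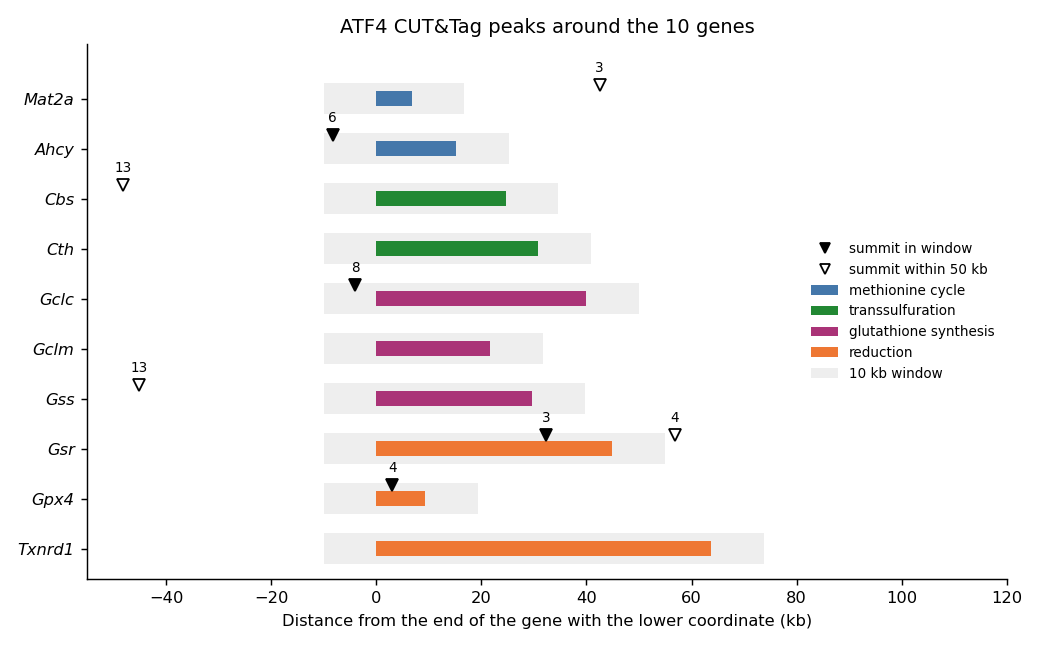
Position of ATF4 peak summits around the 10 genes, in kb from the end of each gene with the lower coordinate. Coloured bars are genes, grey bars the genes with 10 kb on each side, filled triangles summits inside the window and open triangles summits outside it but within 50 kb, with the number of fragments above each. 4 windows hold a summit, of 3 to 8 fragments, and the triangles with 13 fragments at Cbs and Gss lie outside their windows.

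The 4 peaks held 3, 4, 6 and 8 fragments, with Gsr and Gpx4 at or below the library median and Ahcy and Gclc above it. Of all peaks, 75.7% held 5 or fewer and 91.0% held 8 or fewer. The intervals of the 4 member peaks overlapped each other, so these cannot be ranked among themselves at this depth. None reached a -log10 q of 5, which 18.3% of all peaks did. A gene without a called peak is not shown to lack ATF4: no peak of the list had fewer than 3 fragments, and peaks of 3 fragments were listed only where the background was 0.216 or less.

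Set beside all protein-coding genes, 4 of the 10 members had a peak in their window, against 24.8%. For peaks within 1 kb of a gene end the count was 0 of 10, against 8.13%. Measured from transcript starts instead, 0 of the 7 members with an entry had a summit within 1 kb of a listed start, against 8.20%, and 0 of 7 had a summit within the 300 promoter bases, against 3.42%. Counting only peaks of 6 fragments or more, 2 of 10 had one, Ahcy and Gclc, against 8.35%. Where -log10 q had to reach 5, the members counted 0 of 10 and all genes 6.21%. With 10 genes, 1 gene more or fewer moves the share widely, and these shares describe the list without a test. The windows of the 10 genes covered 486.7 kb and held 8.22 peaks per Mb, from 4 peaks. The joined windows of all protein-coding genes held 3.99 peaks per Mb. The windows of the 72 other genes of these pathways, described below and added up gene by gene like those of the members, held 7.15 per Mb.

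The share of genes with a peak in the window grew with gene length, from 15.4% of genes under 10 kb to 49.98% of those of 100 kb or more. Of the 2 members under 10 kb, Gpx4 had a peak and Mat2a did not. Of the 4 members of 10 to 30 kb, only Ahcy had a peak, against 23.1% of all genes in that range. Of the 4 members of 30 to 100 kb, Gclc and Gsr had a peak, against 29.4%. The members had a median length of 27.1 kb and all protein-coding genes one of 17.2 kb.

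**Figure D2:**
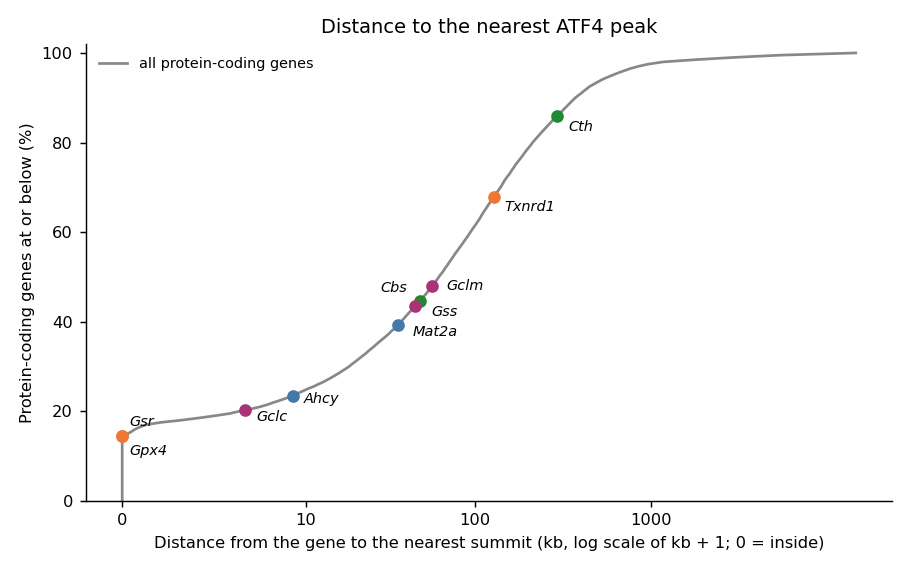
Distance from each gene to the nearest ATF4 summit, in kb on a log scale of kb + 1, against the percent of protein-coding genes at or below that distance. The grey line is all 21887 protein-coding genes and the points are the 10 members, coloured by pathway step as in the map of summits; Gsr and Gpx4 overlap at 0, and Cth is the farthest at 293.7 kb.

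The other genes of these pathways were listed, 72 in all, to place the members; the list was drawn up with earlier results of these data known, so its counts are a description only. 20 of the 72 (27.8%) had a peak in their window, against 24.8% of all protein-coding genes, and 7 (9.72%) had one within 1 kb of a gene end, against 8.13%. With a -log10 q of at least 5 the count was 9 (12.5%), against 6.21% and 0 of the 10 members. Among the members, Gclc at 4.75 and Ahcy at 4.55 fell just short. Of the 9, Ggt7, Prdx3, Gsto2 and Gstm6 were counted through a peak that lay nearer to an end of another gene. Gstm6 shared its peak with Gstm7, and the share of all genes counts peaks in the same way. Counting peaks of 6 fragments or more, 13 of the 72 had one (18.1%), beside 2 of the 10 members and 8.35% of all protein-coding genes. Of the 64 with listed promoters, 9 had a summit within 1 kb of a start (14.1%), against 8.20% of genes and 0 of 7 members.

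Among the peaks of the 72 other pathway genes, the tallest were those of Chac1 and Slc3a2, in the group of glutathione turnover and cystine import. The peak in the window of Ggt7 held 13 fragments and that in the window of Prdx3 held 12, both more than that of Slc7a11. Of the 10 genes of glutathione turnover and cystine import, 4 had a peak in the window, against 24.8% of all protein-coding genes. With a -log10 q of at least 5 the count was also 4 of the 10 genes, against 6.21% of all protein-coding genes. The peak of Chac1, at 119350589 to 119351267 of chromosome 2, held 29 fragments (19.4 to 41.6) at a fold enrichment of 10.9 (q = 1.21e-21), at rank 126. Its interval lay above those of all 4 member peaks. Slc3a2 encodes the heavy chain that pairs with the Slc7a11 carrier. Its peak, on chromosome 19 from 8712915 to 8713550, held 25 fragments (16.2 to 36.9) at a fold enrichment of 10.99, and its summit lay 579 bp after a listed start. The interval of Slc3a2 also lay above those of the members. At Slc7a11 the peak (chromosome 3, 50443398 to 50443723) held 9 fragments (4.12 to 17.1) with a fold enrichment of 7.07. This interval overlapped that of Gclc, so Slc7a11 and Gclc cannot be ranked by height. The peak in the window of Ggt7, a gene of the gamma-glutamyl transferase family, was the one at the start of Acss2 that was also nearest to Gss.

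The counts of the other groups were small and are given beside the 24.8% of all protein-coding genes with a peak in the window, without a test. 0 of the 7 other genes of transsulfuration and cysteine breakdown had a peak in their window, and neither did the members Cbs and Cth. In the methionine cycle 2 of 9 other genes had one, and the peak of Ahcyl1, an Ahcy-like gene, lay at its start with 4 fragments. Of the 11 other glutathione peroxidases and glutaredoxins 2 had a peak, both at the start of the gene. Glrx5, a mitochondrial glutaredoxin of iron-sulfur cluster assembly, held 7 fragments at 4 bp from its start, and Glrx2 held 3. Gpx4 was the only gene of the Gpx family on these lists with a called peak in its window.

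In the thioredoxin system 5 of 12 other genes had a peak. Prdx5, a peroxiredoxin, had one of 4 fragments 167 bp inside its start. The tallest, of 12 fragments in the window of the mitochondrial peroxiredoxin Prdx3, lay 26 bp from the start of the neighbour Sfxn4. Of the 23 glutathione transferase genes 7 had a peak. 1 peak of 8 fragments served both Gstm7, 28 bp after a listed start, and its neighbour Gstm6. The Gstm genes are similar copies, so the placement of reads among them is uncertain. The peak of 7 fragments near Gsto2 lay 112 bp from an end of Itprip, and that of 3 fragments inside Gstz1 lay 145 bp from the start of Pomt2.

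**Figure D3:**
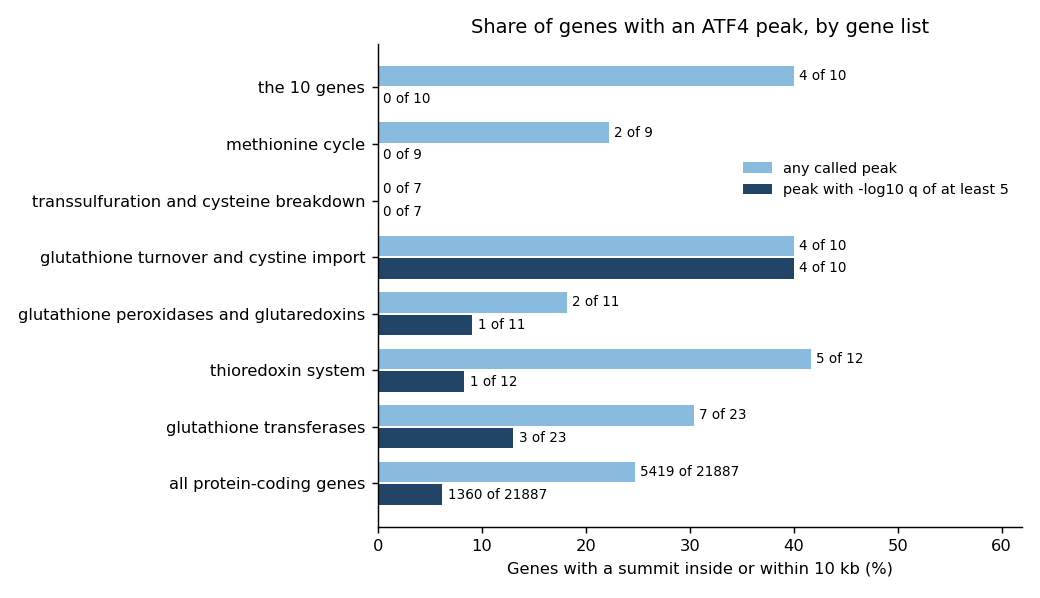
Percent of genes with an ATF4 summit inside or within 10 kb, for the 10 members, the 6 lists of other pathway genes and all protein-coding genes. Light bars count any called peak and dark bars those with a -log10 q of at least 5; the members reach 4 of 10 and 0 of 10, cystine import and glutathione turnover 4 of 10 on both counts.

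**Figure D4:**
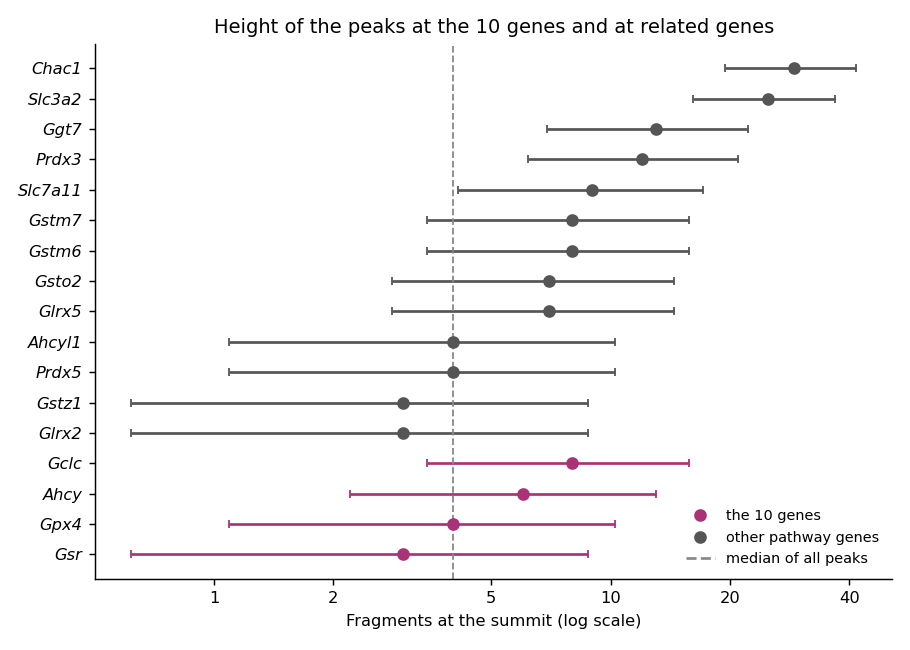
Fragments at the summit (log scale) with exact Poisson 95% intervals for the 4 member peaks and for peaks of other pathway genes within 1 kb of a gene end or with a -log10 q of at least 5. The dashed line is the median of all peaks, 4 fragments; the intervals of Chac1 and Slc3a2 lie above those of all 4 members, and the Gstm6 and Gstm7 points are 1 shared peak.

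The motif counts of the members were set beside the library as a whole. Among listed promoters of protein-coding genes, the CARE core was found in 3.51% of the 20624 without a summit (Clopper-Pearson 95% interval 3.26% to 3.77%) and in 19.5% of the 149 with a summit of 10 or more fragments (13.4% to 26.7%). Promoters with 3 fragments held it in 0 of 81, which allows up to 4.45%, those with 4 to 5 in 1.02% and those with 6 to 9 in 5.63% (2.94% to 9.63%). The antioxidant response element was found in 12.9% of promoters without a summit, and in 18.5%, 15.8%, 16.0% and 14.1% of those with 3, 4 to 5, 6 to 9 and 10 or more fragments. The core TGACG was found in 23.0% without a summit and in 30.9%, 40.3%, 44.1% and 54.4% of the same classes, so its share was also highest at the tallest summits. Listed starts of 1 gene can share sequence, so promoters are not independent of each other, and base composition was not compared.

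**Figure D5:**
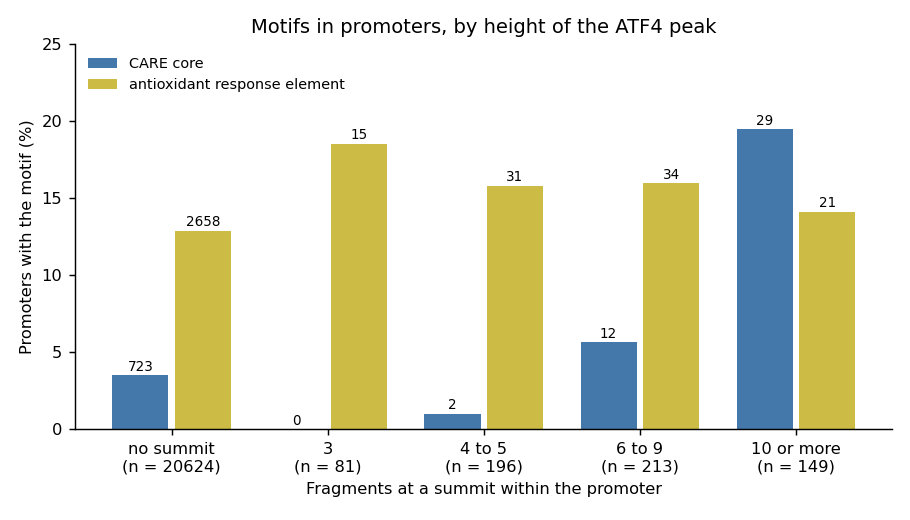
Percent of listed promoters with the CARE core or the antioxidant response element, by the number of fragments at a summit within the promoter. Numbers above the bars count promoters with the motif and n is the number in each class; the CARE core reaches 19.5% at 10 or more fragments, while all listed promoters of the members are in the class without a summit.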

How the data were processed

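CUT&Tag of ATF4 was analysed in 1 library of primary mouse neurons. The submitters' processing notes name FastQC, BWA, MACS2 2.1.2, deepTools and the build mm10, with no role or threshold, and whether the IgG library served as control is not given in the sources used here. For each peak the authors deposited a fold enrichment (a ratio), the -log10 of the p-value and q-value, a display score and a summit offset. In all 7873 peaks the whole part of 10 times -log10 q gave the score.

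Fragments were solved from the fold, read as (fragments + 1) / (background + 1), and from the probability of more fragments under a Poisson background, accepted within 0.001 in -log10 p; for peaks called on single reads these are reads. The depth of the library is unknown. Peaks were joined by summit to 21887 protein-coding RefSeq genes (GRCm38.p6, the assembly of mm10), which carry no exons here. Strands and starts came from the promoter table, which has 21263 entries for 17492 protein-coding genes; motifs were searched on both strands. Members and lists were chosen with earlier results of these data known. The pathway genes named were those whose peak lay less than 1 kb from an end or reached a -log10 q of 5, with a few others named for their counts. Scripts were tested on simulated data. Scripts ran under Python 3.11.15 with pandas 2.3.3, matplotlib 3.10.9, scipy 1.17.1 and numpy 2.4.6. Alternatives were other windows, stricter peaks, overlap in place of the summit and other motifs.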

Additional observations from a re-analysis of the deposited data

How the results depend on the processing

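The number of members with a peak, 4 as reported, and the number of their peaks, also 4, did not move when any overlap of the peak replaced the summit. Both were 2 with the window at 1 kb, against 17.8% of all protein-coding genes, 0 with a -log10 q of at least 5 and 2 with at least 6 fragments. With the window at 50 kb they were 7 genes and 8 peaks, against 45.4% of all protein-coding genes; the stricter settings keep fewer peaks by construction. The count of 0 members with a summit less than 1 kb from either end was also 0 at 3 kb. The share of all protein-coding genes at 3 kb was 11.3%. The members also counted 0 with overlap and within 1 kb of a listed start, the latter chosen after seeing the data. At 500 bp and with each stricter set of peaks the count had to stay 0, since these settings only remove peaks. The 20 other pathway genes became 13 (18.1%) with a 1 kb window, against 17.8% of all protein-coding genes, 9 (12.5%, against 6.21%) where -log10 q had to reach 5, and 13 with at least 6 fragments, against 8.35%. In place of 0 members with the CARE core, 3 held the core TGACG and 4 held the CARE core with 1 mismatch, against 50.1% of all genes with an entry. The member peaks rest on 3 to 8 fragments, and depth was not varied.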
